A study of Bombyx mori with 4 samples.

Results

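The genes described here are the cyclins, the kinases they activate, the mitotic kinases, the spindle checkpoint, the kinetochore and the anaphase promoting complex of the silkworm, *Bombyx mori*. They were found by words in the annotation: a gene probe was taken when its symbol or description held cyclin, cell division cycle, mitotic, spindle, kinetochore, centromere, aurora, polo, anaphase or checkpoint, and names of cyclin J, CDC25, proteasome, cyclophilin or proliferating cell nuclear antigen alone were left out. This gave 79 of the 23229 gene probes on the array. The cells were BmN4-SID1, a silkworm ovary line that takes up double-stranded RNA (dsRNA) from the medium, and they were harvested 7 days after dsRNA of BmSCE, BmESC, BmPHO or BmSCM was added, genes of distinct Polycomb group complexes that keep target genes silent. The reference in each hybridization was RNA of the same line after EGFP RNAi, so both sides of every ratio had received dsRNA. RNA of 3 experiments was pooled for each treatment and read on 1 array per knockdown, where Cy5 labelled the knockdown, Cy3 labelled EGFP RNAi and the dyes were never exchanged. Therefore no spread between replicates exists, no p-value is given, and a dye effect of a probe cannot be told apart from the knockdown.

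Cell division is driven by cyclin-dependent kinases (CDKs), which work only when bound to a cyclin. Aurora and polo kinases build the spindle, kinetochores attach chromosomes to it, and the spindle checkpoint holds back the anaphase promoting complex (APC/C) until each chromosome is attached. The APC/C then marks cyclins and the proteins that hold sister chromatids for destruction. Many of these genes are transcribed in waves through the cell cycle, and in bulk RNA fewer dividing cells and less RNA per cell cannot be told apart. Most names below rest on the closest protein of another species and are given as matches.

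A spot was read as measured when it passed the flag of the file, which on these values means a brighter channel of at least 400. Measured gene probes numbered 7434 to 9869 per array. The log2 ratio of 5 silkworm control probes, each printed 49 times, varied with an SD of 0.07 to 0.42 on the same array, but these controls were bright (5857 or more) and this SD covers neither dim spots nor the difference between cultures. The probe matched to extra sex combs (sw12637) stood at -2.61 in BmESC RNAi and between -0.68 and 0.13 in the other knockdowns, which checks the label of 1 array. The yeast spike-in controls had a median log2 ratio of 1.33 (BmSCE), 1.28 (BmESC), 4.01 (BmPHO) and 3.27 (BmSCM), so the BmPHO and BmSCM arrays differ from the other two in a control as well as in knockdown. The part of this in the members' values was not tested. Of the 32 germ line and ovary markers, 11, 14, 11 and 10 were measured on the arrays of BmSCE, BmESC, BmPHO and BmSCM. Of these 0, 2, 2 and 2 rose and 0, 0, 2 and 0 fell, with a median log2 ratio of -0.03, 0.14, 0.42 and 0.52. Of all measured gene probes 2.43%, 4.46%, 11.8% and 9.46% rose and 1.1%, 3.25%, 7.84% and 6.29% fell. Their medians were 0.02, 0.02, 0.05 and 0.07. Fat body, haemocyte, silk gland, muscle and neuron markers had medians of -0.53 to 0.22 in BmPHO and -0.27 to 0.26 in BmSCM RNAi. The part of the germ line and ovary markers in the members' values was not tested.

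The division genes were detected more often than the average gene. Of 79 probes, 45, 49, 42 and 45 were measured on the arrays of BmSCE, BmESC, BmPHO and BmSCM, or 57.0%, 62.0%, 53.2% and 57.0%, where all gene probes reached 33.7%, 42.5%, 32.0% and 35.8%. Of lists given at the end, 35 of 47 DNA replication and 16 of 29 SCF ubiquitin ligase probes were measured on the BmSCE array. Of the marker lists, 7 of 25 fat body and 7 of 22 haemocyte probes were measured there, shares below that of all gene probes. Measured shares were above it for 11 of 32 germ line and ovary, 4 of 11 silk gland, 15 of 34 muscle and 10 of 24 neuron probes. Members were chosen by an annotated name, while the comparison takes in all gene probes. On all 4 arrays 41 members were measured, and 27 were measured on none. One of the cyclin E probes (sw07991), one of the cyclin D2 probes (sw12209), CDK6 (sw14640), CDK8 (sw01119), CDC6 (sw06581), checkpoint kinase 1 (sw21113), the APC/C activator FZR1 (sw15347) and kinetochore associated 2 (sw19331), a part of the microtubule-binding NDC80 complex, were among those too dim to read, so nothing can be said of a change at these probes.

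Taken as a group, the members lay close to EGFP RNAi, with a few falls. A probe is said to have risen or fallen where it was measured and passed 2.0-fold, a log2 ratio of 1 either way. In BmSCE RNAi 0 of 45 members rose, where 2.43% of all measured gene probes did, and 0 fell, where 1.1% did. In BmESC RNAi 1 of 49 rose, against 4.46% of all probes, and 4 fell, which is 8.16% of the members against 3.25% of all probes. In BmPHO RNAi 1 of 42 rose, against 11.8%, and 5 fell, 11.9% against 7.84%. In BmSCM RNAi 1 of 45 rose, against 9.46%, and 6 fell, 13.3% against 6.29%.

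Rises were thus rarer than over all probes on each array in this normalization. Falls had a higher share than over all probes on the BmESC, BmPHO and BmSCM arrays, but on 4, 5 and 6 probes, and on each of these arrays an alternative turned that order round. The median log2 ratio of the members was -0.06 (BmSCE), -0.01 (BmESC), -0.17 (BmPHO) and -0.25 (BmSCM), where that of all measured gene probes was 0.02, 0.02, 0.05 and 0.07. The BmSCM median depended on the normalization and lay between -0.40 and -0.02 under the alternatives. With both channels required at 400 or more, 0 of 40, 1 of 44, 2 of 36 and 4 of 36 members fell, or 0%, 2.27%, 5.56% and 11.1%, against 0.82%, 3.17%, 6.58% and 6.38% of all such probes, so the share of members was below that of all probes in BmESC and BmPHO RNAi. With the deposited normalized ratio it was below in BmSCM RNAi, at 2 of 45 members or 4.44% against 5.86%. With both channels required at 400 or more no member rose, against 1.67%, 3.31%, 7.59% and 6.64% of all such probes. Of the 18 member values past 2.0-fold, 11 have a channel under 400. All 4 ratios of a gene share EGFP RNAi as reference, so the knockdowns are given side by side and agreement between them is not read as a result.

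**Figure D1:**
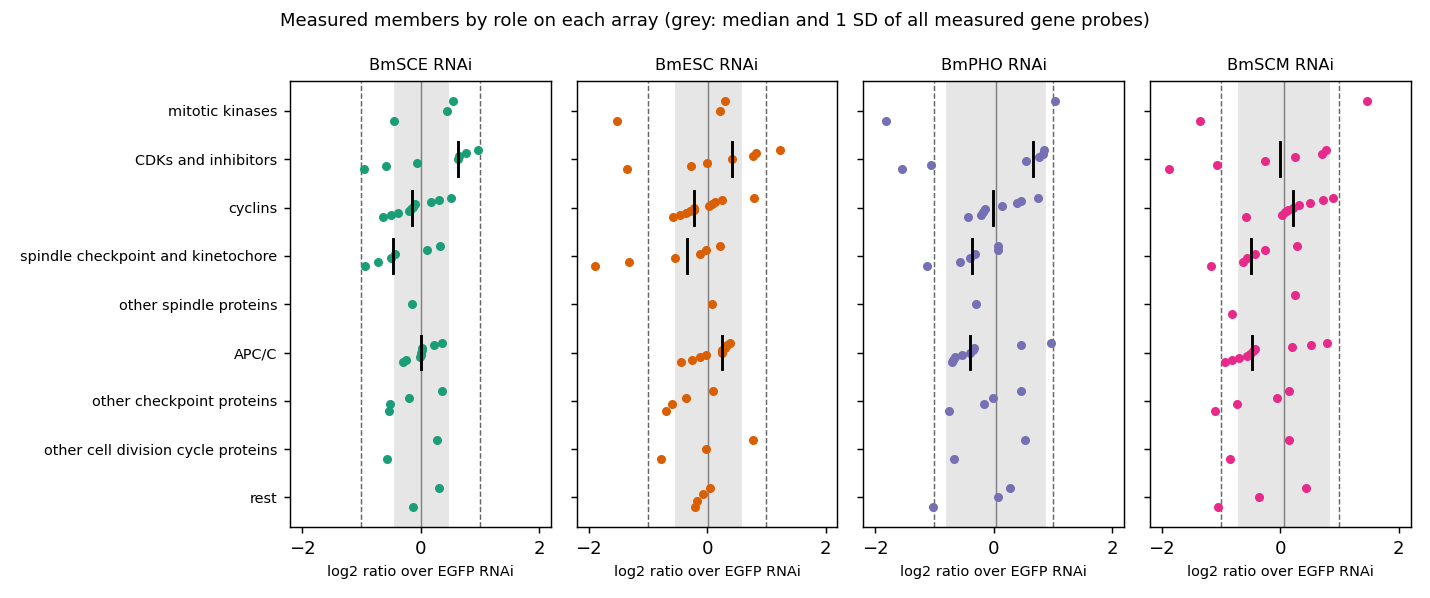
Log2 ratio over EGFP RNAi (horizontal axis) of each measured member, by role (rows), in 1 panel per knockdown. Black bars are medians where at least 5 members were measured, the grey band is the median and 1 SD of all measured gene probes, and dashed lines mark 2.0-fold. The cyclins and APC/C subunits among the members stay between the dashed lines on all arrays.

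Among the mitotic kinases, the aurora match fell in 3 knockdowns. Aurora kinases steer centrosome maturation, chromosome attachment and the last step of cell separation. The probe (sw04642) matches mouse aurora kinase C, and the name does not settle which of the insect aurora kinases it reads. Its intensity was 714, 301, 266 and 401 under RNAi of BmSCE, BmESC, BmPHO and BmSCM, against 842, 700, 806 and 670 in EGFP RNAi on the same arrays. The EGFP readings thus stayed within a narrow band while the knockdown readings spread widely. After normalization the log2 ratio was -0.46, -1.52, -1.81 and -1.35, that is 2.86-fold (BmESC), 3.52-fold (BmPHO) and 2.54-fold (BmSCM) lower. BmSCE RNAi stayed within 2.0-fold. The knockdown channel was under 400 in BmESC and BmPHO RNAi, where these falls could not be read with both channels required at 400. With a loess curve drawn from bright probes only, the BmSCM value was -0.93 and passed no threshold.

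The polo kinase kinase went the other way. Polo kinase kinase 1 of *Drosophila* is a Ste20-type kinase described as able to phosphorylate polo. Its match sw08567 read 689, 748, 652 and 1381 in the 4 knockdowns, against 432, 514, 272 and 341 in EGFP RNAi. It rose 2.05-fold in BmPHO and 2.76-fold in BmSCM RNAi (log2 ratio 1.04 and 1.47) and stood at 0.44 in BmSCE and 0.22 in BmESC RNAi. In BmPHO and BmSCM RNAi the EGFP channel was under 400, and with a floor of 200 on the intensities the BmPHO value was 0.97.

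A second probe of that name (sw08618) read 429 in BmSCE and 1172 in BmESC RNAi, against 243 and 747 in EGFP RNAi, with log2 ratios of 0.54 and 0.30. It was too dim to call in BmPHO and BmSCM RNAi, the knockdowns where sw08567 rose. The other probe of the name (sw02728) was dim on all arrays. No member is named polo kinase itself, so the kinase that gives the family its name was not followed.

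**Figure D2:**
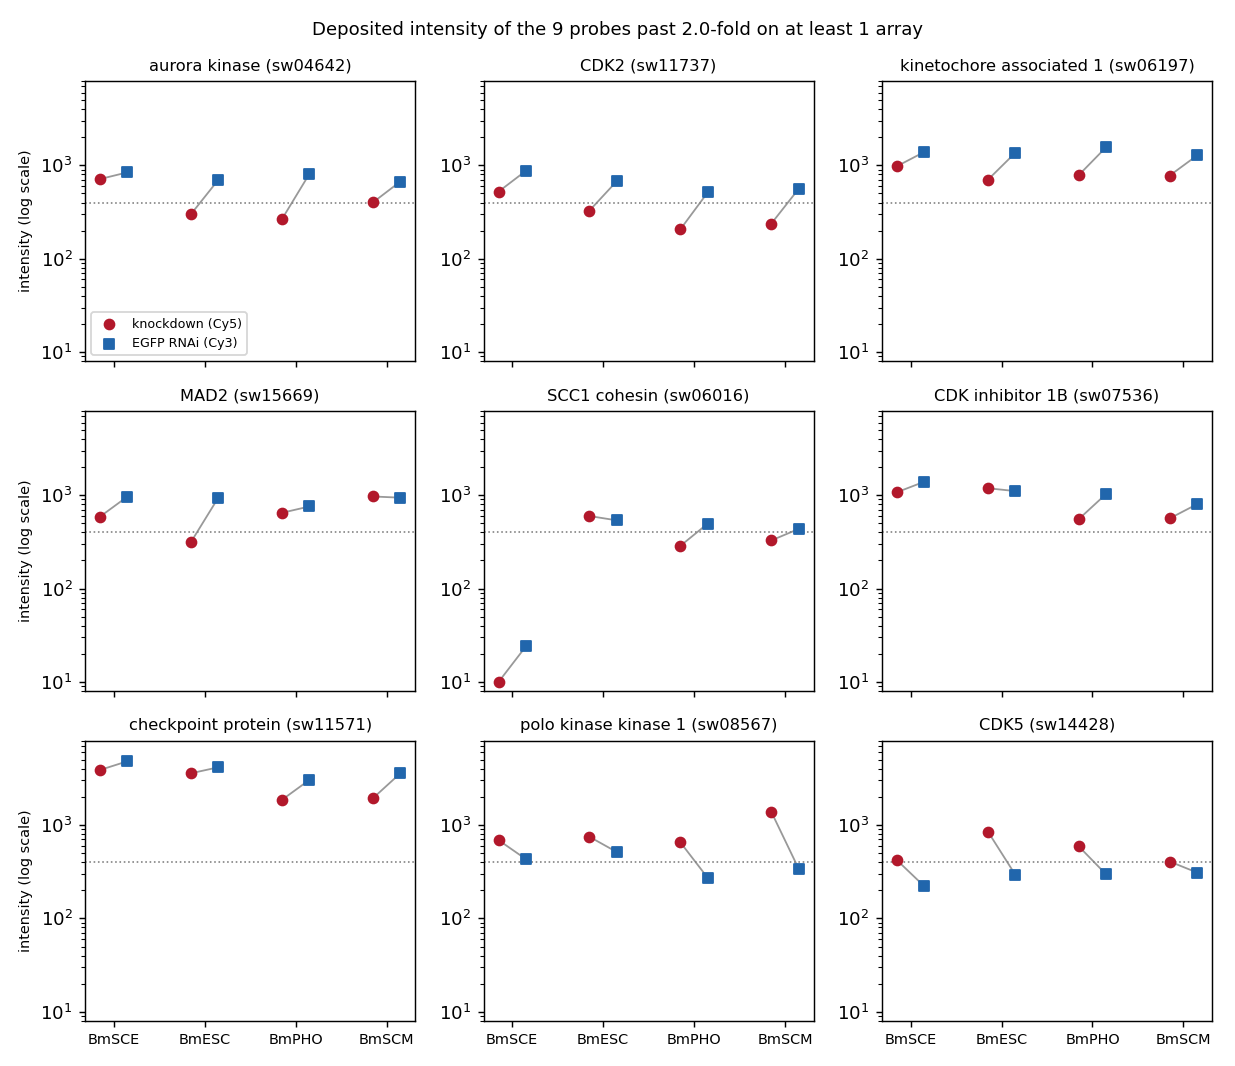
Deposited intensity (vertical axis, log scale) of the 9 members past 2.0-fold on at least 1 array, with the knockdown (Cy5, red circles) left of EGFP RNAi (Cy3, blue squares) for each array. The dotted line marks 400, and a negative reading of the SCC1 probe in BmSCE RNAi is drawn at 10. For the aurora match the EGFP squares lie at 670 to 842 and the knockdown circles at 266 to 714.

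CDK2, which in animals partners cyclin E and cyclin A at the start of DNA replication, gave lower ratios than CDK5. No other CDK match was measured on all arrays. The CDK2 match (sw11737) read 523, 328, 207 and 238 under RNAi of BmSCE, BmESC, BmPHO and BmSCM, against 873, 677, 513 and 560 in EGFP RNAi. The knockdown reading was the lower one on each array. It fell 2.54-fold (BmESC), 2.93-fold (BmPHO) and 3.68-fold (BmSCM), with log2 ratios of -1.35, -1.55 and -1.88. The size of the BmSCM fall depended on the normalization, from -1.20 with a curve from bright probes to -2.24 with loess within print blocks. In BmSCE RNAi the log2 ratio was -0.96, just inside the threshold, and a loess curve within print blocks put it at -1.18. In each of its falls the knockdown channel was under 400, so none of them could be read with both channels required at that level.

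CDK5, best known from neurons of vertebrates and little tied to the division cycle, behaved differently. Its match (sw14428) read 420, 851, 590 and 406 in the knockdowns, against 221, 295, 296 and 310 in EGFP RNAi. It rose 2.34-fold in BmESC RNAi (log2 ratio 1.22), with 0.64 (BmSCE), 0.77 (BmPHO) and -0.26 (BmSCM) elsewhere. The EGFP channel was dim throughout, and the deposited normalized ratio gave 0.81 in BmESC RNAi, which passed no threshold.

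The match to the CDK inhibitor 1B, or p27 (sw07536), whose vertebrate protein stops cyclin-CDK pairs before replication, read 1076, 1187, 555 and 565 in the knockdowns and 1394, 1107, 1032 and 801 in EGFP RNAi. It fell 2.09-fold in both BmPHO and BmSCM RNAi (log2 ratio -1.06 each), barely past the threshold, and was -0.58 in BmSCE and -0.27 in BmESC RNAi. The BmSCM fall held under 2 of 6 alternatives and was as little as -0.79. The BmPHO fall held under 5 of 6, and was -0.92 with the deposited normalized ratio. Both counts include the requirement of both channels at 400, which leaves the ratio unchanged and so could not fail here.

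Subunits that assist CDKs lay above 0 without passing 2.0-fold. MAT1 assembles the CDK-activating kinase, which switches on other CDKs and also serves in transcription. The brighter MAT1 match (sw15808) read 9823, 8327, 6283 and 6906 in the knockdowns and 4233, 3750, 3513 and 3783 in EGFP RNAi, and its log2 ratio was 0.98, 0.77, 0.85 and 0.77. A second MAT1 match (sw07030) gave 0.78, 0.41, 0.55 and 0.25. The probe named CDK regulatory subunit (sw13641), of the small Cks proteins that dock CDKs on their substrates, stood at 0.65, 0.82, 0.83 and 0.71. In BmSCE RNAi sw15808 passed 2.0-fold under 2 alternatives, at 1.06 and 1.02. Of the 14 CDK and inhibitor probes, 7 were too dim on all arrays.

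No cyclin among the members passed 2.0-fold on any array in the reported normalization. Cyclin J, which the rule leaves out, rose in BmPHO and BmSCM RNAi and is given at the end. The group counts 20 probes, of which 10, 11, 8 and 9 were measured on the BmSCE, BmESC, BmPHO and BmSCM arrays, and 8 were dim on all. Its median log2 ratio was -0.14, -0.22, 0.00 and 0.22. Over all measured gene probes 2.43%, 4.46%, 11.8% and 9.46% rose and 1.1%, 3.25%, 7.84% and 6.29% fell on these arrays. With so few cyclins measured, the absence of calls is not read as a result about them. The name covers some proteins that are no cyclins, such as the membrane transporter called cyclin M2 (sw01405) and a kinase that binds cyclin G.

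Cyclin A, which drives replication and the entry into mitosis, has 2 probes. The match to fish cyclin A1 (sw12378) read 2594, 3146, 2053 and 2996 in the knockdowns and 2445, 2285, 2192 and 2046 in EGFP RNAi, a log2 ratio of -0.12, 0.08, -0.15 and 0.32. The other, a match to a cyclin A whose species the file does not name (sw12379), gave -0.50, 0.04, -0.43 and 0.04. Both are thus near EGFP RNAi in the knockdowns in which the CDK2 match fell.

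Cyclin B, the partner of the mitotic CDK, was the highest cyclin among the members in BmSCM RNAi. The silkworm cyclin B probe (sw04030) read 991, 1767, 676 and 1061 in the knockdowns and 908, 1584, 424 and 388 in EGFP RNAi. Its EGFP reading alone differed 4.08-fold between arrays, where the median of that spread over the 41 members measured throughout was 1.34-fold. The log2 ratio was -0.09, -0.22, 0.47 and 0.88, and in BmSCM RNAi it passed 2.0-fold under 3 alternatives, at 1.07 to 1.13. The other cyclin B probe (sw06333) was too dim on all arrays.

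Cyclin H, the cyclin of the CDK-activating kinase that MAT1 assembles, matched sw04389 and stood at -0.16, -0.58, -0.22 and -0.58, on the other side of 0 from the MAT1 probes. Cyclin K (sw08766), a transcription cyclin, stood at -0.64, -0.22, 0.14 and 0.13. Cyclin G2 (sw11733), which in vertebrates is linked to arrest, was at 0.18, 0.14, 0.76 and 0.73. The brightest of the group, a match to a mosquito cyclin (sw07542) at up to 9198 in BmESC RNAi, gave 0.51, 0.79, -0.17 and 0.51.

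In the spindle checkpoint and the kinetochore, the matches to kinetochore associated 1 and MAD2 fell. Of 8 probes 6 were measured on all arrays, and their median log2 ratio was -0.47, -0.33, -0.36 and -0.49. The match to kinetochore associated 1 (sw06197), named Rod in flies, which brings checkpoint proteins and dynein to unattached kinetochores, read 980, 701, 788 and 779 in the knockdowns, against 1391, 1361, 1567 and 1277 in EGFP RNAi. All knockdown readings lay below all EGFP readings. The log2 ratio was -0.72, -1.31, -1.12 and -1.17, so that it fell 2.49-fold (BmESC), 2.17-fold (BmPHO) and 2.25-fold (BmSCM). Both channels exceeded 400 on each array, and the falls in BmESC and BmPHO RNAi passed the threshold under all 6 alternatives. The BmSCM fall passed under 4 of 6. Each of these counts includes the requirement of both channels at 400, which leaves the ratio unchanged and so could not fail here.

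MAD2 is the checkpoint protein that captures the activator of the APC/C. Its match (sw15669) read 590, 316, 648 and 969 under RNAi of BmSCE, BmESC, BmPHO and BmSCM, against 966, 941, 757 and 941 in EGFP RNAi. It fell 3.70-fold in BmESC RNAi (log2 ratio -1.89), and stood at -0.93 (BmSCE), -0.40 (BmPHO) and -0.43 (BmSCM) elsewhere. The knockdown channel was under 400 in BmESC RNAi, so that fall could not be read with both channels required at 400. The deposited normalized ratio put the BmSCE value past 2.0-fold, at -1.15.

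The match to MAD1 (sw06969), which anchors MAD2 at the kinetochore, stayed within 2.0-fold at -0.44, -0.02, -0.57 and -0.62. The match to ZW10 (sw18161), which sits in 1 complex with Rod, gave 0.12, 0.21, 0.07 and -0.55, unlike the probe for its partner. Centromere protein J, a centriole protein despite its name, had 2 matches, at 0.32, -0.12, 0.07 and 0.29 (sw16416) and at -0.50, -0.54, -0.31 and -0.25 (sw12443). The 2 probes of 1 name thus differ in sign on 3 arrays, and whether they read the same gene is not known.

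**Figure D3:**
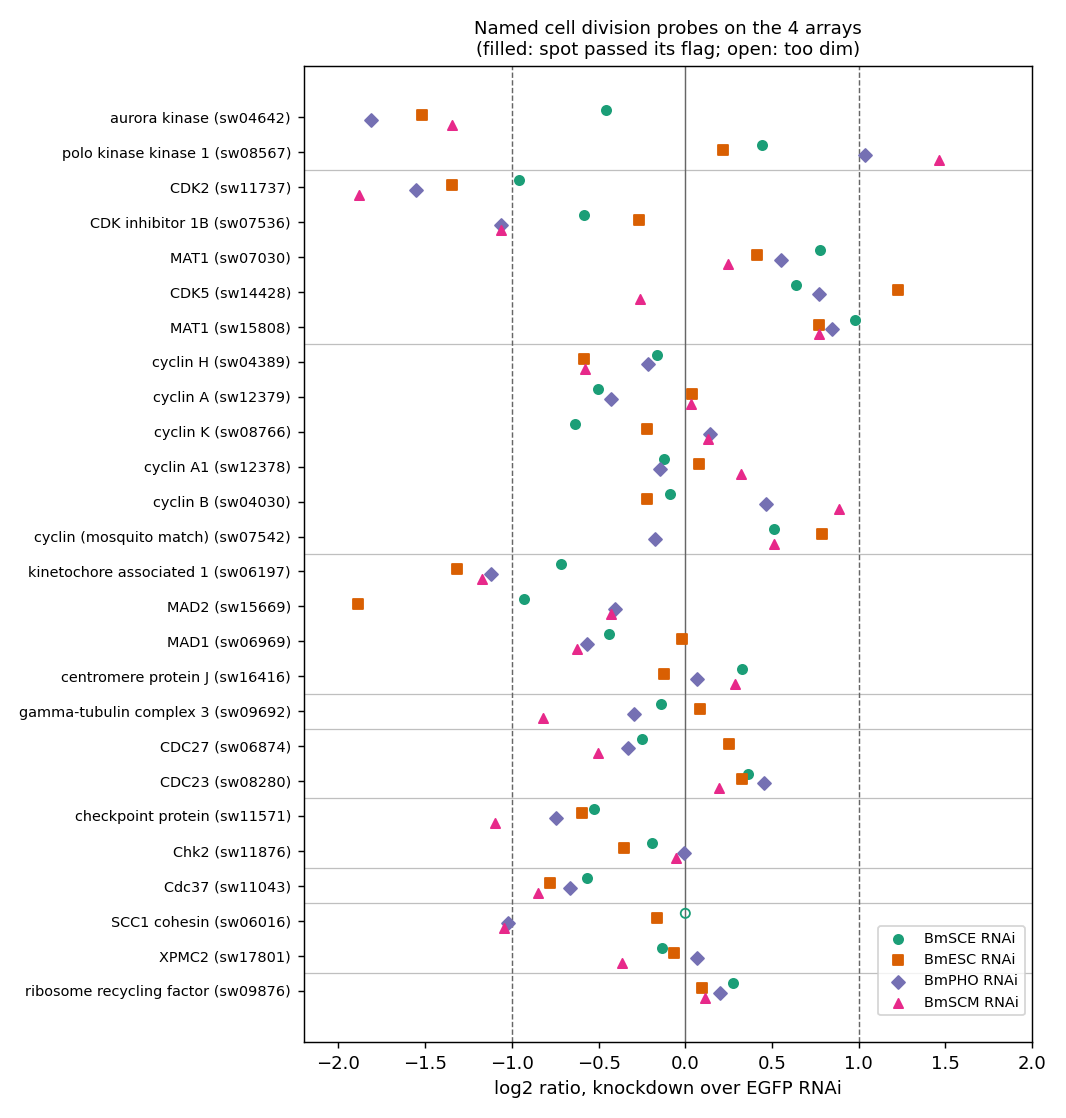
Log2 ratio over EGFP RNAi (horizontal axis) of 26 named members (rows, grouped by role) in BmSCE, BmESC, BmPHO and BmSCM RNAi, with dashed lines at 2.0-fold. Filled points passed the spot flag and the open point did not. The aurora, CDK2 and kinetochore associated 1 matches lie left of the lower dashed line in BmESC, BmPHO and BmSCM RNAi.

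No APC/C probe passed 2.0-fold. Of 14 probes 10 were measured on at least 1 array, and 0 rose or fell. Over all measured gene probes 2.43%, 4.46%, 11.8% and 9.46% rose and 1.1%, 3.25%, 7.84% and 6.29% fell on the arrays of BmSCE, BmESC, BmPHO and BmSCM. With so few APC/C probes, the absence of calls is not read as a result about the complex. The median log2 ratio of the APC/C probes was 0.01 (BmSCE), 0.24 (BmESC), -0.40 (BmPHO) and -0.48 (BmSCM). The brightest subunit, CDC23 (sw08280), read 7126, 6425, 4005 and 4271 in the knockdowns and 4727, 3923, 2899 and 3385 in EGFP RNAi, with log2 ratios of 0.36, 0.33, 0.46 and 0.19. CDC27 (sw06874), which with CDC23 forms the arm that receives the activator, gave -0.25, 0.25, -0.33 and -0.50.

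Subunits of this complex differed among themselves in BmPHO and BmSCM RNAi. Subunit 1, the scaffold (sw11249), stood at 0.00, 0.31, 0.98 and 0.80, the highest of the group in both. Subunit 2 (sw16245), the cullin of the catalytic core, gave -0.29, -0.12, -0.35 and -0.93. Its RING partner subunit 11 has 2 probes, and they ran close to each other, at 0.01, 0.39, -0.53 and -0.46 (sw10978) and at 0.02, 0.24, -0.69 and -0.81 (sw05101). Subunits 4 (sw07659), 5 (sw15930) and 10 (sw12210) lay between -0.70 and -0.40 in BmPHO and BmSCM RNAi and between -0.44 and 0.22 in BmSCE and BmESC RNAi.

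Checkpoint proteins outside the spindle gave 1 fall. A match to a honeybee checkpoint protein (sw11571), whose name does not say which checkpoint, read 3890, 3584, 1862 and 1935 in the knockdowns and 4816, 4152, 3036 and 3573 in EGFP RNAi. It fell 2.14-fold in BmSCM RNAi (log2 ratio -1.10) and was -0.53, -0.59 and -0.75 in BmSCE, BmESC and BmPHO RNAi. It was the brightest member that fell, although the deposited normalized ratio left it at -0.93. Checkpoint kinase 2 (sw11876), which relays DNA breaks, stayed at -0.19, -0.35, -0.01 and -0.05.

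SCC1 is the cohesin subunit that separase cuts when sister chromatids part. Its match (sw06016) did not pass the flag on the BmSCE array, where it read -3 in the knockdown and 24 in EGFP RNAi. It read 598, 287 and 328 in BmESC, BmPHO and BmSCM RNAi, against 538, 496 and 435 in EGFP RNAi. The EGFP reading was thus far lower on the BmSCE array than on the others, and the cause was not tested. The SCC1 match fell 2.03-fold in BmPHO and 2.07-fold in BmSCM RNAi (log2 ratio -1.02 and -1.05) and was -0.16 in BmESC RNAi. The BmPHO fall held under 3 of 6 alternatives and was -0.80 with a curve from bright probes. The BmSCM fall held under 1 of 6, the fewest of the 18 values, and was -0.37 with a curve from bright probes. Neither fall could be read with both channels required at 400.

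The remaining members lay within 2.0-fold. Cdc37 (sw11043), a chaperone partner of HSP90 that matures many kinases, CDKs among them, read 4587, 4183, 3592 and 3103 in the knockdowns and 5815, 5501, 5734 and 5078 in EGFP RNAi, a log2 ratio of -0.57, -0.78, -0.67 and -0.85. Its EGFP readings were steady, and median centring put its BmSCM value past the threshold, at -1.17. Gamma-tubulin complex component 3 (sw09692), which seeds spindle microtubules, stood at -0.14, 0.08, -0.29 and -0.82. The XPMC2 match (sw17801), the brightest member at 10000 to 15540 in the knockdowns and 12326 to 13374 in EGFP RNAi, stayed at -0.13, -0.06, 0.07 and -0.36. A ribosome recycling factor of mitochondria (sw09876), is a member only because the letters of cyclin stand in the word recycling, and it gave 0.27, 0.10, 0.20 and 0.11.

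Cyclins of the first growth phase were read on some arrays only. The readable cyclin E match (sw02485) gave 398 and 479 in BmSCE and BmESC RNAi, against 438 and 476 in EGFP RNAi, with log2 ratios of -0.38 and -0.29. The readable cyclin D2 match (sw01003) stood at 0.30 in BmSCE and 0.09 in BmSCM RNAi. Both genes lie near the lower limit of reading, as does the transcription cyclin T (sw03213), measured in BmESC RNAi alone at 0.26.

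The match to the cell division cycle and apoptosis regulator 1 (sw09065), a coactivator of transcription, stood at 0.27, 0.77, 0.53 and 0.14. A DNA damage checkpoint mediator match (sw03574) gave 0.36, 0.11, 0.46 and 0.15, and a match to a fungal checkpoint kinase (sw11093) gave -0.51, -0.70, -0.16 and -0.74. The 2 thus lie on opposite sides of 0 on each array. Separase (sw15594), the protease that cuts SCC1, was readable in BmSCM RNAi alone, at 470 against 252 in EGFP RNAi and a log2 ratio of 0.25. A match to a mitotic phosphoprotein of frog (sw15171) gave 0.31, 0.05, 0.27 and 0.43. The other members read on some arrays only, among them a further subunit 1 match of the APC/C (sw01159) at 0.53 in BmSCM RNAi and a CDK-like 2 match (sw06486) at -0.06 and -0.01 in BmSCE and BmESC RNAi, passed no threshold.

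In all, 9 members passed 2.0-fold on at least 1 array, 7 downward and 2 upward, in 18 of the 181 pairs of a measured member and an array. Of the 41 members measured on all arrays, 33 or 80.5% stayed within 2.0-fold on each, against 73.2% of all gene probes so measured. Of the 18 values, 16 remained past the threshold with a floor of 200, 16 with loess within print blocks, 15 with median centring, 14 with a curve from bright probes and 12 with the deposited normalized ratio. With both channels required at 400 or more, 7 remained and 11 could not be read. This setting only removes spots, so the 7 kept values are unchanged and had to remain.

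**Figure D4:**
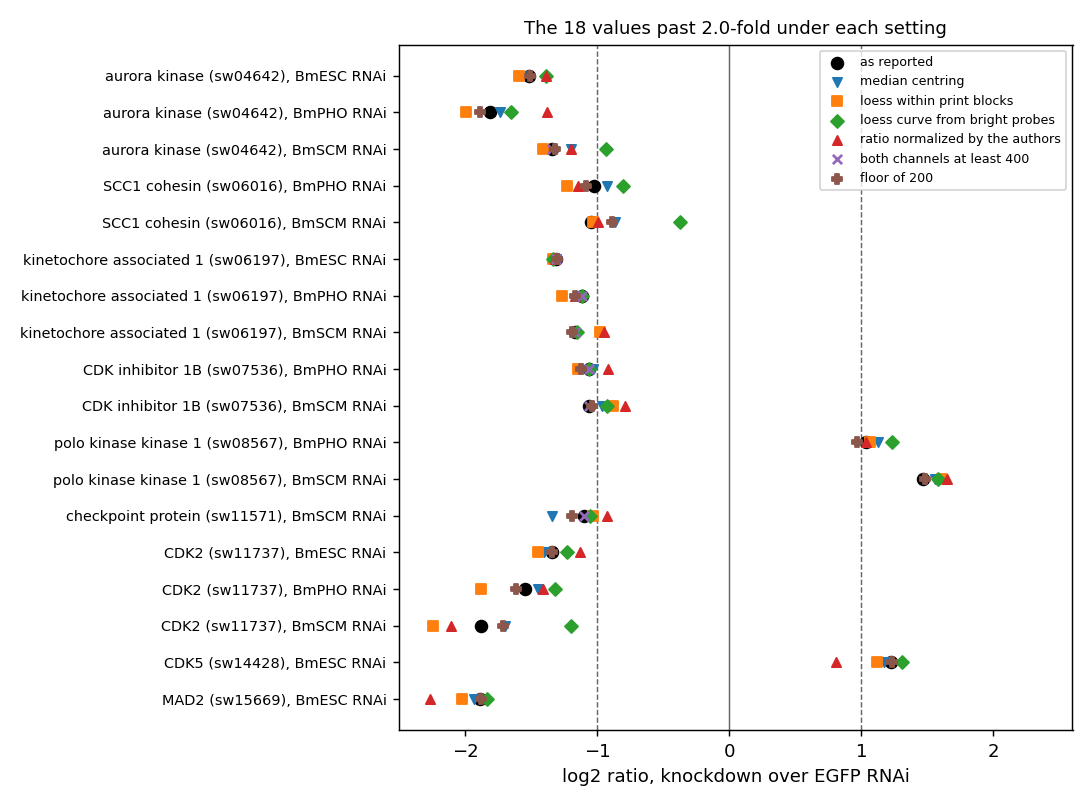
Log2 ratio over EGFP RNAi (horizontal axis) of the 18 member and array values past 2.0-fold (rows), as reported (black) and under 6 alternatives (colours), with dashed lines at 2.0-fold. A cross is missing where a channel was under 400. Kinetochore associated 1 in BmESC RNAi hardly moves, while SCC1 in BmSCM RNAi spreads from -1.05 to -0.37.

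Other parts of the division machinery, found by words in the annotation and holding no member, are set beside these. Of all measured gene probes 2.43%, 4.46%, 11.8% and 9.46% rose and 1.1%, 3.25%, 7.84% and 6.29% fell on the arrays in the same order, and the counts below are to be read against these shares. For DNA replication (47 probes), 0 of 35, 1 of 35, 6 of 37 and 4 of 38 measured probes fell on the arrays of BmSCE, BmESC, BmPHO and BmSCM and 0 rose on any array, with a median log2 ratio of -0.07, -0.22, -0.73 and -0.50. The small subunit of replication protein A (sw08359), which coats single-stranded DNA, read 3228, 1315, 967 and 1280 in the knockdowns and 4317, 4374, 4538 and 3602 in EGFP RNAi, and fell in BmESC, BmPHO and BmSCM RNAi at -2.12, -2.29 and -1.75. Its BmSCE value was -0.63.

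Cohesin and condensin, which hold and compact chromosomes, have 9 probes, and 1 of 5, 1 of 6, 3 of 5 and 1 of 4 measured ones fell in the same order, with 0 risen. The SMC2 match (sw08285), a condensin ATPase, fell on each array, at -1.05, -1.63, -1.36 and -1.38, with readings of 1049, 784, 471 and 628 in the knockdowns and 1882, 1885, 1073 and 1152 in EGFP RNAi. Its partner SMC4 (sw00512) fell in BmPHO RNAi only, at -1.04, with -0.38, -0.87 and -0.79 in BmSCE, BmESC and BmSCM RNAi.

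Tubulins and kinesins (75 probes) moved in both directions. Of 30, 33, 28 and 36 measured probes, 0, 0, 3 and 6 rose and 0, 4, 6 and 6 fell. A match to ncd (sw03030), the fly kinesin that focuses spindle poles, fell in BmESC, BmPHO and BmSCM RNAi at -1.18, -1.44 and -1.11. The SCF ubiquitin ligase, which destroys cell cycle inhibitors, has 29 probes, of which 16, 18, 15 and 14 were measured, and 0, 1, 1 and 0 of these rose and 0, 0, 0 and 1 fell. The list for E2F, its partner DP and retinoblastoma, which set the transcription wave before replication, had 4 measured probes on each array. Of these 1 fell, in BmPHO RNAi, and 0 rose on any array. The median log2 ratio of this list was -0.31 (BmSCE), -0.11 (BmESC), -0.68 (BmPHO) and -0.52 (BmSCM). All 4 probes lay below 0 on the BmPHO and BmSCM arrays, against 2 of 4 on each of the others. The highest of the 4 was -0.05 in BmPHO and -0.06 in BmSCM RNAi. Of all measured gene probes 48.1%, 47.4%, 47.7% and 46.5% lay below 0 on the arrays of BmSCE, BmESC, BmPHO and BmSCM. With 4 probes, the count is not read as a result about this list. Cyclin J (sw14443), left out of the members by the rule, stood at 0.38 and 0.85 in BmSCE and BmESC RNAi and rose in BmPHO and BmSCM RNAi at 1.49 and 1.08, where no cyclin among the members did so in the reported normalization.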

How the data were processed

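Each of the 4 arrays carried 24288 spots of 70-mer oligonucleotides. The deposited intensity columns hold Cy5 and Cy3 after subtraction of the local background by the authors. The deposited ratio is Cy5 over Cy3 after normalization within the array by the authors, by a method not given in the sources used here, and the deposited log2 values equal the log2 of that ratio. Here intensities under 100 were set to 100, log2 ratios were taken, and loess against mean brightness (span 0.3, 4 iterations) was fitted to all gene probes of an array with limma 3.58.1 in R 4.3.3. Per array the result correlated with the deposited values at 0.961 to 0.971. Counts used Python 3.11.15 and pandas 2.3.3. The procedure was run on simulated spots. Their changed spots were brighter than most members past 2.0-fold and changed by more than any reported member value. The simulation thus covers neither dim spots nor changes near 2.0-fold. A log ratio of a dim spot depends on the floor and the subtraction.

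The members and lists were chosen with earlier results of these data known. Named are sw04642, sw08567, members past 2.0-fold, listed core cell cycle genes measured on all arrays, and the brightest member of each role, 26 in all. Further members (such as the other APC/C subunits, sw13641, sw11733 and sw18161) and the named probes outside the set were chosen with their values in view. Silkworm gene numbers were given for 7 members, and 6 of them were found in the RefSeq gene table. Of all words searched, 83 probes matched, and 4 were left out by the rule. The alternatives were median centring, loess within print blocks, a loess curve from bright probes, the ratio normalized by the authors, both channels at least 400, and a floor of 200. Both channels at least 400 only removes spots, so a kept value past 2.0-fold passes there by construction. With 1 array per knockdown no test was possible.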

Additional observations from a re-analysis of the deposited data

Results flagged for a closer look

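The CDK5 match (sw14428) had normalized values of opposite sign in 2 knockdowns, and the one below 0 passed no threshold. Its log2 ratio over EGFP RNAi was 1.22 in BmESC RNAi and -0.26 in BmSCM RNAi, a difference of 1.48 on the log2 scale. The difference was not tested, because each knockdown has 1 array. The knockdown channel read 851 in BmESC and 406 in BmSCM RNAi, against 295 and 310 in EGFP RNAi, so before normalization the knockdown channel was the brighter one on both.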

How the results depend on the processing

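No member value past 2.0-fold changed sign under any alternative that recomputes the ratio, and both channels at least 400 cannot change a sign. In BmSCE RNAi 1 member rose with loess within print blocks and with a curve from bright probes, and 1 fell with loess within print blocks and with the ratio normalized by the authors. In BmESC RNAi 0 rose with the ratio normalized by the authors and with both channels at least 400, where 1 fell. In BmPHO RNAi 0 rose with both channels at least 400, where 2 fell, and 0 rose with a floor of 200. In BmSCM RNAi 2 rose with loess within print blocks, with a curve from bright probes and with the ratio normalized by the authors, and 0 with both channels at least 400, while 3 fell with the curve from bright probes and 2 with the ratio normalized by the authors.

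The BmSCM median of the members, -0.25, was -0.13 with median centring, -0.099 with loess within print blocks, -0.022 with a curve from bright probes, -0.073 with the ratio normalized by the authors, -0.395 with both channels at least 400 and -0.096 with a floor of 200. The curve from bright probes raised the median of all gene probes in BmSCM RNAi by 0.19, to 0.25, and gave 1515 risen and 340 fallen probes, 81.7% of calls upward, where the reported normalization gave 786 and 523, or 60.0%. Median centring gave 785 and 765, or 50.6%. The cause was not tested.

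The other 50 values of these counts and medians lay within 1.5 times the reported count or moved by less than the spot-to-spot SD of the control probes, among them 4 falls in BmSCM RNAi with loess within print blocks and a BmSCE median of 0.0064, above 0, with a curve from bright probes. No paired analysis was possible because each knockdown has 1 array. Depth limits the calls through brightness: 11 of the 18 values past 2.0-fold have a channel under 400.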
